A study of Mus musculus with 30 samples.

Results

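BMP4 signalling and its immediate target genes were followed here through 10 genes: the ligand Bmp4, the receptor Bmpr1a, the signal transducers Smad1 and Smad5, and the target genes Id1, Id2, Id3, Id4, Msx1 and Msx2. A member was every array probe set annotated to exactly 1 of these symbols, which gave 25 probe sets, out of 18193 genes that had a probe set of 1 symbol. Mouse R-1 embryonic stem cells (ESC), kept undifferentiated with the cytokine LIF, were compared with embryoid bodies (EB), the differentiating aggregates that the same cells form, at day 5 without LIF. All cultures of both states received cycloheximide (150 ug/ml for 15 min), which holds ribosomes in place on mRNA. Cytoplasmic lysate was spread on a sucrose gradient and its 12 fractions were joined into 4 pools, and the pools and the undivided lysate (total RNA) of 3 cultures per state were hybridised to Affymetrix mouse arrays, 30 arrays in all. The end of the gradient at which pool 1 was taken was not stated, so pools are named by number only. ESC and EB come from 1 cell line, and EB are mixtures of cell types: in such bulk samples, fewer cells of a type and less RNA per cell cannot be told apart.

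BMP ligands such as BMP4 bind receptor pairs of type I (BMPR1A among them) and type II, and the active type I receptor phosphorylates SMAD1 and SMAD5, which enter the nucleus with SMAD4 and switch on target genes. The Id genes are the classical immediate targets. Their proteins bind basic helix-loop-helix (bHLH) transcription factors and keep them from DNA, and in mouse ESC the BMP and Id route is known for acting with LIF to hold cells in self-renewal. Msx1 and Msx2 encode homeobox proteins that are BMP targets in many embryonic tissues.

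Relative to all genes, Id3 rose in EB in total RNA and in every pool, Id4 rose in total RNA and in pools 3 and 4 by its lead probe set, and Bmp4 fell in total RNA and in every pool. Id1 passed the test in neither direction in any of these comparisons. Id2 fell in pool 4 by its lead probe set only, and that fall turned to a rise without normalisation. Between the pools, again relative to all genes, Id3 stood further toward pools 1 and 2 in EB than in ESC, and a probe set of Smad1 stood further toward pools 3 and 4. Neither passed the test without ESC replicate 2, and without normalisation the sign of the Id3 difference turned. Between the states, Bmpr1a, Smad5, Msx1 and Msx2 passed the test with 1 probe set each, in a single pool.

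The promoters of the 3 genes that changed in total RNA, Bmp4, Id3 and Id4, are shown with that of Id2, a further member of the Id family, because these genes moved differently between the states. Each run is 250 bases before and 50 bases after the annotated start, from RefSeq on build GRCm38.p6, 5′ to 3′ on the gene's strand, with the GC-rich SMAD motif GGCGCC in capitals. They lie at chr14:46390620-46390919 (Bmp4, minus strand), chr12:25096043-25096342 (Id2, minus strand), chr4:136143572-136143871 (Id3, plus strand) and chr13:48260866-48261165 (Id4, plus strand).
Bmp4: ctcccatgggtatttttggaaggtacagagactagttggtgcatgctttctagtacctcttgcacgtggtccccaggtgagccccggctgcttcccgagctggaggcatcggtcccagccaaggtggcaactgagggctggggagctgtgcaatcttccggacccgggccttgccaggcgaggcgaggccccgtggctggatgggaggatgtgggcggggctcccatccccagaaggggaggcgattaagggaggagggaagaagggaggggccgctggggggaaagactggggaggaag
Id2: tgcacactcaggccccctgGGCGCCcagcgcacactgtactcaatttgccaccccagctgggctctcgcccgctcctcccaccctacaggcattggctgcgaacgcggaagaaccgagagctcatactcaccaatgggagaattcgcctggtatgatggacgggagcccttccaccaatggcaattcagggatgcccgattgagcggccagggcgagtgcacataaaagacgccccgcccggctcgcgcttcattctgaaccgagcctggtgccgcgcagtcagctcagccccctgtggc
Id3: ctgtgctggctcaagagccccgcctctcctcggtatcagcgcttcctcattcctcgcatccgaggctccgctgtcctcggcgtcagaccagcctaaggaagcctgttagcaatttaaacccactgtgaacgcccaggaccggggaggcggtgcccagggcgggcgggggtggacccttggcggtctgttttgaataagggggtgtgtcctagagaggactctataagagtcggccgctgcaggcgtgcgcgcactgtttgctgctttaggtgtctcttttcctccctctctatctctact
Id4: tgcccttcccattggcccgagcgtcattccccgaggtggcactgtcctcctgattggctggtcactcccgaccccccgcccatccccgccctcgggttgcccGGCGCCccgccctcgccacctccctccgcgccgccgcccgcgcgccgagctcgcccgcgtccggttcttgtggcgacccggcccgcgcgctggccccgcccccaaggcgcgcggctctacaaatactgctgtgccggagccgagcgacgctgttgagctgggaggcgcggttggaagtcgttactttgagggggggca
The motif GGCGCC, which reads the same on both strands, was in 5 of the 11 RefSeq promoters found for 9 of the 10 genes: it began at position -231 from the start in Id2, at -148 in Id4, at -198 in Bmpr1a, and at -19 or 24 in a pair of overlapping Smad5 promoters. Those 5 promoters belonged to 4 genes, and 11.9% of all 32851 promoters of this length held the motif. The promoters of Bmp4, Id3, Smad1, Msx1 and Msx2 did not hold these letters in this window. The SMAD box GTCT, sought on both strands and counted whatever other motif it touched, occurred 3 times in Id3, 2 times in Bmp4, 1 time in Id2 and 0 times in Id4, and 88% of all promoters held it at least once. The sequence TATAAA was in none of the member promoters and in 13.6% of all promoters. G and C made up 64.0% of the Bmp4 run, 63.3% of Id2, 60.0% of Id3 and 73.3% of Id4, against a median of 52.7% over all promoters. A match is a description of letters only, and no binding was measured.

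The deposited values were log2 signals. Signals were higher in EB for most probe sets: with 32 added to the linear signal, log2 taken and no normalisation (the unnormalised scale), the median difference EB minus ESC over the 27023 probe sets tested was 0.86 in total RNA and 0.05, 0.37, 0.89 and 0.73 in pools 1 to 4. Mean linear signal ranged from 72.4 to 577.8 over the 30 arrays, and 18.2% to 59.0% of probe sets on a pool array lay at its floor, the lowest value it reports. The 8 pool arrays of a replicate number shared 1 floor, at 3.80, 2.93 or 3.35. Differences were therefore tested relative to all genes, that is, after adding 32 to the linear signal and giving all arrays of a comparison the same distribution (quantile normalisation), with limma; these are the values on the normalised scale. Differences on the unnormalised scale stand beside them; as they carry the offset of 32, they are smaller than the differences between the deposited signals listed, most so at low signal. A probe set is called when its p, adjusted over all 27023 probe sets, is under 0.05. In this way 22 of the 25 member probe sets were tested, and 1 each of Bmpr1a, Id2 and Msx2 fell under the filter on low signal. The lead probe set of a gene is the one with the highest mean, and all 10 leads were tested. Pluripotency markers were high in both states (Pou5f1 at a mean log2 signal of 11.48 in ESC and 12.28 in EB total RNA, Nanog at 10.75 and 12.41). Of the 10 such markers listed, only Klf4 had a lower mean in EB total RNA on the deposited scale (10.69 in ESC and 10.16 in EB). Most probe sets were higher in EB on that scale, so this count says little of pluripotency. The markers were not tested relative to all genes. With EB higher, 3 of 6 endoderm markers lay apart between the states (Gata6 at 4.42 and 7.02, Sox17 at 2.82 and 6.18, Ttr at 3.07 and 7.47), while Gata4, Foxa2 and Afp overlapped. In total RNA, before normalisation, every EB value was above every ESC value for 72.6% of all probe sets. The count of 3 therefore says little of endoderm. The summed linear signal of all 6 endoderm markers was 37.6 to 124.1 in ESC and 392.6 to 578.0 in EB, and that of 6 fibroblast markers, which feeder cells would carry, was 113.1 to 188.4 and 233.2 to 270.3. The mean linear signal of these total RNA arrays was higher in EB too, at 151 to 156.4 in ESC and 302.1 to 376.4 in EB. The log2 ratio of 3′ to 5′ probe sets of Actb, a measure of RNA integrity and of labelling, was 3.10 ± 0.29 (SD, n = 3) in ESC and 2.26 ± 0.22 in EB total RNA. In pools 1 to 4 its means were 4.06, 4.10, 2.69 and 2.30 in ESC and 2.55, 1.66, 1.10 and 0.74 in EB. It moved with both the state and the pool number, and its part in the results below was not tested.

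In total RNA, 3 of the 22 member probe sets were called higher in EB and 1 lower, where 4.03% and 3.61% of all probe sets were. The median difference of the 22 was 0.30, against -0.01 over all probe sets. On the unnormalised scale 19 of the 22 were called higher and 0 lower, and so were 73.3% and 0.229% of all probe sets, so that count says little of these genes. In pools 2, 3 and 4 the unnormalised values gave a call in either direction for 2.75%, 46.2% and 69.6% of all probe sets, and in pool 1 for 0 of the 27023 by limma, with 1021 at an unadjusted p under 0.05. The unnormalised pool ratio was called between the states for 55.1%, in ESC for 20.3% and in EB for 56.9% of them.

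**Figure D1:**
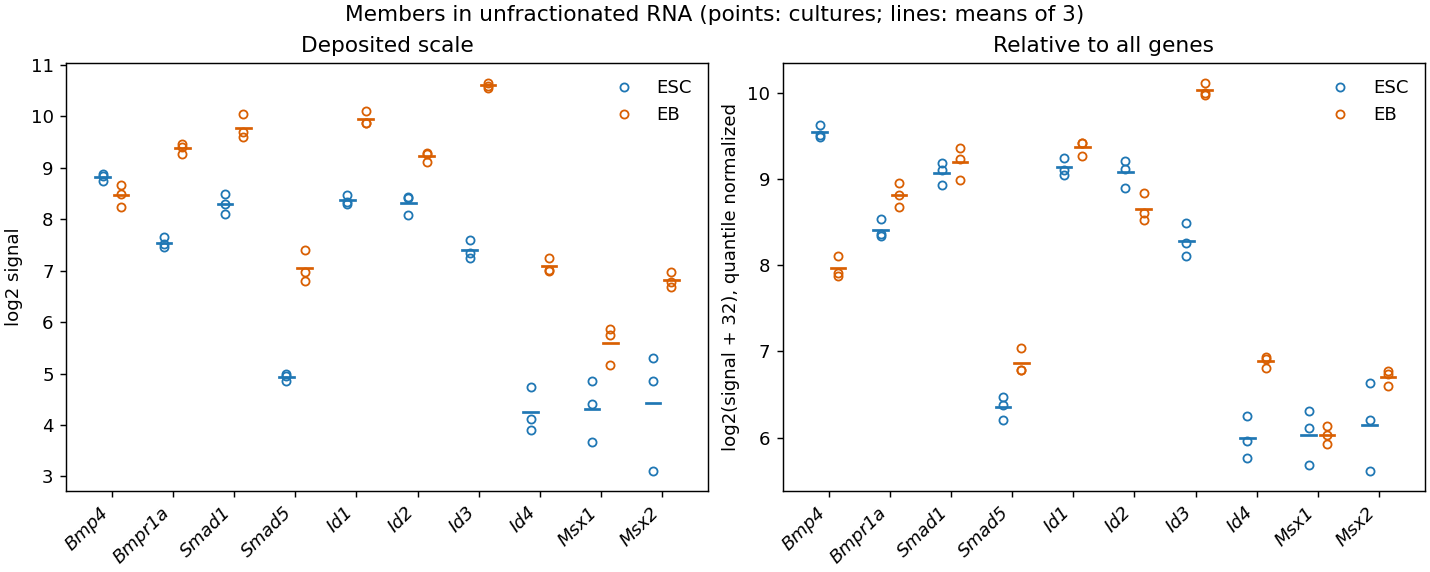
Signal of the lead probe set of each gene in total RNA, as log2 signal on the deposited scale (left) and as log2(signal + 32) after quantile normalisation (right). Circles are the 3 cultures of a state and lines their means; Id3 is higher and Bmp4 lower in EB on both scales, and levels are not comparable between genes.

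Bmp4 is the only ligand among the members. Its deposited log2 signal in total RNA was 8.75, 8.85 and 8.88 in the 3 ESC cultures and 8.50, 8.24 and 8.66 in the 3 EB cultures. All 3 EB values lay below all 3 ESC values, as was so for 0.315% of all probe sets, while for 72.6% every EB value was above every ESC value. Relative to all genes Bmp4 fell by 1.58 ± 0.13 on the log2 scale (SE, n = 3 per state; limma, adjusted p = 0.00237). On the unnormalised scale the difference was -0.33 ± 0.17 and was not called (adjusted p = 0.0927).

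The same fall stood in every pool. In ESC, Bmp4 signal was 9.27, 7.83 and 7.95 in pool 1, 9.79, 9.42 and 9.33 in pool 2, 9.78, 8.88 and 9.29 in pool 3, and 8.89, 8.86 and 8.63 in pool 4. In EB it was 6.93, 5.43 and 6.17 in pool 1, 8.74, 7.34 and 7.57 in pool 2, 9.87, 8.40 and 8.46 in pool 3, and 7.84, 7.60 and 7.77 in pool 4. On this deposited scale only the pool 3 values overlapped, through EB replicate 1, and in pools 1, 2 and 4 the states lay apart with EB lower for 1.40%, 1.16% and 0.266% of all probe sets. Relative to all genes the states overlapped in none of total RNA and the 4 pools, as was so with EB lower for 15.6%, 13.8%, 14.0%, 17.1% and 19.8% of all probe sets. The differences were -1.81 ± 0.14 in pool 1 (limma, adjusted p = 0.00423), -1.90 ± 0.25 in pool 2 (0.00773), -1.70 ± 0.14 in pool 3 (2.59e-04) and -2.21 ± 0.10 in pool 4 (8.74e-05). In pool 4 the difference within replicate numbers 1, 2 and 3 was -2.08, -2.20 and -2.36. The pool 2 call was lost without EB replicate 2 (-1.92, adjusted p = 0.0558), ESC replicate 1 (-1.92, 0.0520) or ESC replicate 2 (-1.73, 0.0609). On the unnormalised scale pools 2 and 4 were called lower (-1.5 and -0.96), and pools 1 and 3 were not called (-1.76 and -0.38). On the deposited scale, 80.9% of all probe sets had their highest mean in pool 2 in ESC and 52.1% in pool 3 in EB. Bmp4 likewise lay highest in pool 2 in all 3 ESC cultures and in pool 3 in all 3 EB cultures. Its pool ratio, which is the log2 mean of pools 3 and 4 less the log2 mean of pools 1 and 2 of 1 culture, was 0.27, 0.16 and 0.42 in ESC and 0.04, 0.34 and 0.21 in EB relative to all genes. The groups overlapped, and the difference of -0.09 ± 0.16 (95% interval -0.44 to 0.26; limma, adjusted p = 0.799) was not called, while on the unnormalised scale its sign turned and it was called higher (0.96).

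**Figure D2:**
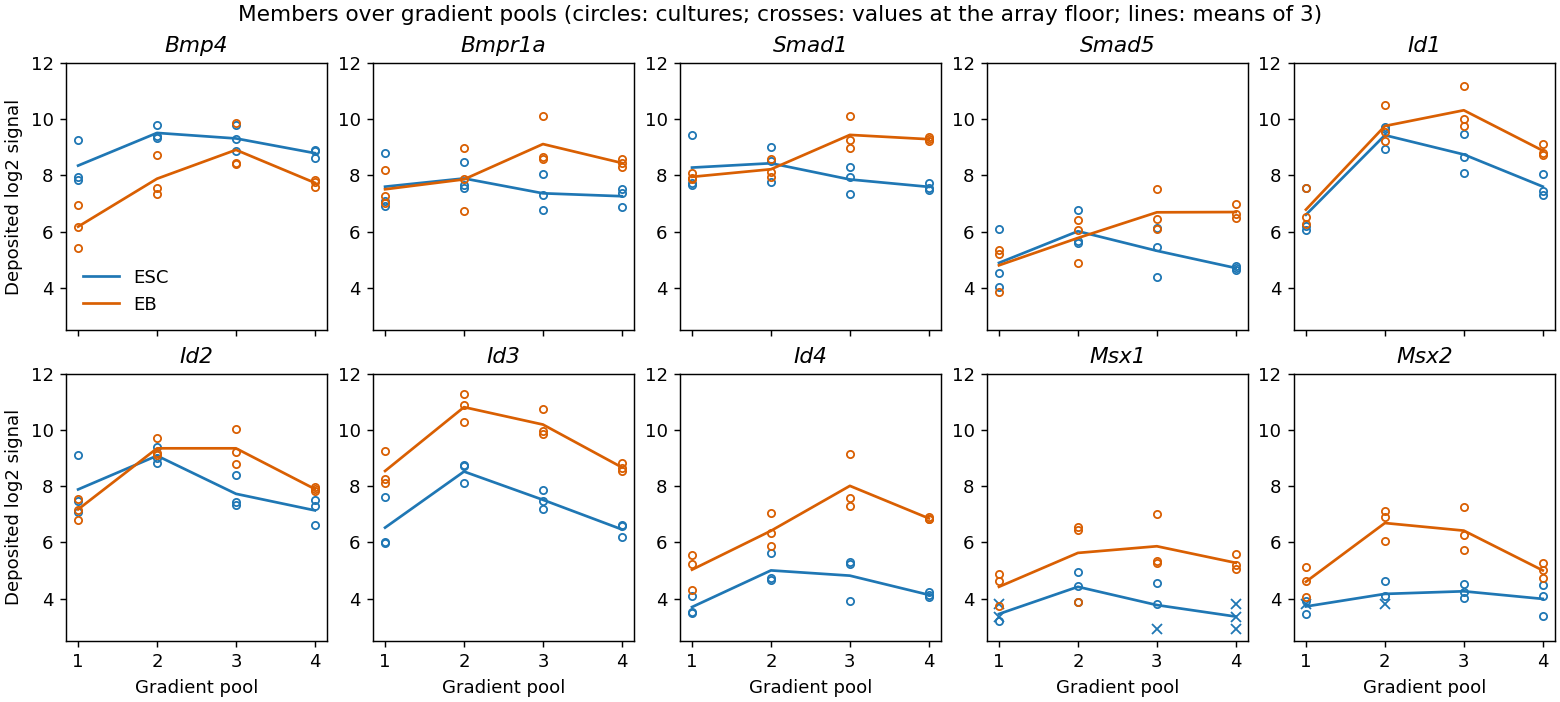
Deposited log2 signal of each lead probe set in gradient pools 1 to 4. Circles are cultures, crosses are values at an array's floor, and lines join the means of 3 cultures in ESC (blue) and EB (orange); Bmp4 is lower in EB in pools 1, 2 and 4, Id3 is higher in EB in all pools, and Id3 peaks in pool 2 in both states.

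Bmpr1a encodes a type I receptor for BMP2 and BMP4. Its lead probe set had signals of 7.46, 7.52 and 7.66 in ESC and 9.47, 9.41 and 9.27 in EB total RNA on the deposited scale. Relative to all genes the EB values were still above the ESC values, as was so for 16.6% of all probe sets. The difference of 0.40 ± 0.13 was not called (limma, adjusted p = 0.118, and 1.68 and called on the unnormalised scale). Of the other 4 tested Bmpr1a probe sets, 3 had differences of 0.09 to 0.36 and 1 had -0.56, none of them called. Across the pools the lead's differences were -0.08, -0.52, 0.26 and -0.27. The pool 4 value was not called (limma, adjusted p = 0.0726), was called without EB replicate 3 (-0.33, 0.0417) and turned to a called rise of 1.03 on the unnormalised scale. Probe set 1425491_at was called higher in pool 4 (0.42 ± 0.12, adjusted p = 0.0370), so the probe sets of this receptor differed in sign there. That call was lost without EB replicate 2 (0.34) or 3 (0.39) or ESC replicate 2 (0.35) or 3 (0.45). Within each state, 1425494_s_at had a pool ratio below 0 in all 6 cultures, at -0.92, -0.75 and -0.31 in ESC and -0.42, -0.60 and -0.46 in EB. Those ratios were called against 0 in ESC (-0.66 ± 0.13, limma, adjusted p = 0.00236) and in EB (-0.49 ± 0.13, 0.00984). On the unnormalised scale the EB ratio turned to 0.40, and without EB replicate 2 it was not called (-0.44, 0.0666). The other 4 tested probe sets of Bmpr1a, the lead among them, were not called against 0 in either state.

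Smad1 encodes a transcription factor that the BMP receptors activate directly. The lead probe set, whose suffix _s marks probes that can match more than 1 transcript, had signals of 8.30, 8.49 and 8.11 in ESC and 10.04, 9.70 and 9.60 in EB total RNA on the deposited scale. Relative to all genes the groups overlapped, and the difference was 0.12 ± 0.15 (limma, adjusted p = 0.656; unnormalised scale 1.39, called). The second probe set, 1448208_at, had a difference of 0.39 ± 0.13 (limma, adjusted p = 0.109), with EB above ESC in every culture. For 16.6% of all probe sets every EB value was above every ESC value on this scale.

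Between the pools, Smad1 moved toward pools 3 and 4 in EB by 1448208_at, and the other probe sets of the gene had differences of the same sign that were not called. For 1448208_at the deposited signal in EB was 7.73, 7.21 and 7.13 in pool 1 and 9.58, 9.42 and 9.51 in pool 4. In ESC it was 9.14, 7.34 and 7.35 in pool 1 and 7.57, 7.58 and 6.98 in pool 4. Pool 4 exceeded pool 1 in every EB culture and in 1 of the 3 ESC cultures. The mean linear signal of whole arrays was 126.1 in pool 1 and 231.7 in pool 4 in EB, and 126.5 and 97.8 in ESC. That comparison of deposited signals therefore says little of Smad1. On the normalised scale the pool ratio of 1448208_at was -0.46, -0.25 and -0.24 in ESC and 0.56, 0.35 and 0.61 in EB. It was below 0 in every ESC culture and above 0 in every EB culture. For 14.2% of all probe sets every EB ratio was above every ESC ratio. The difference of 0.83 ± 0.16 was called (limma, adjusted p = 0.0142), and within replicate numbers 1, 2 and 3 it was 1.02, 0.61 and 0.85. This was the 1 member probe set of 22 called higher, and Id3 the 1 called lower, where 2.95% and 3.79% of all probe sets were. The lead had a difference of 0.59 ± 0.18 (adjusted p = 0.0660) without overlap of the groups, and 1416081_at one of 0.76 ± 0.29 (0.134) with overlap. The call on 1448208_at was lost without ESC replicate 1 (0.75, adjusted p = 0.0559) and without ESC replicate 2 (0.86, 0.0729), and with an offset of 8 (0.90, 0.0703) or 0 (0.92, 0.119) in place of 32. In pool 4 itself 1448208_at was higher in EB by 0.61 ± 0.09 (adjusted p = 0.00283). In pool 1 it was -0.49 ± 0.11 (0.0550, not called; -0.60 and called without EB replicate 2, 0.0428). Within ESC the lead's ratio of -0.44 ± 0.12 was called (adjusted p = 0.0200), a call lost without ESC replicate 1 (-0.36, 0.148), 2 (-0.51, 0.0598) or 3 (-0.46, 0.0815).

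Smad5, which the same receptors activate, had lower signals. Its lead probe set stood at 5.0, 4.85 and 4.95 in ESC and 7.41, 6.79 and 6.97 in EB total RNA on the deposited scale. On the normalised scale the EB values were above the ESC values without overlap, as was so for 16.6% of all probe sets. The difference of 0.52 ± 0.14 missed the threshold (limma, adjusted p = 0.0666, and 1.40 and called on the unnormalised scale). The other 2 probe sets had differences of 0.49 and 0.05. In the pools 1 of the 3 was called, 1421047_at in pool 3 (0.47 ± 0.12, adjusted p = 0.0294), and its 3 ESC values there were all at the floor, so the size is not a measured fold. The call was lost without EB replicate 1 (0.40), 2 (0.50) or 3 (0.38) or ESC replicate 1 (0.51) or 3 (0.49), and median centring gave -0.04. The lead's pool ratio was -0.33, -0.14 and 0.16 in ESC and 0.32, 0.71 and 0.06 in EB, overlapping, with a difference of 0.47 ± 0.20 (adjusted p = 0.183). The EB ratio of 0.36 was not called against 0 (adjusted p = 0.0617) and was called without EB replicate 3 (0.51, 0.0249).

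Id1, the best known of the direct BMP targets, was called in none of the comparisons between the states relative to all genes. Its signal was 8.48, 8.33 and 8.29 in ESC and 10.11, 9.88 and 9.88 in EB total RNA on the deposited scale. The rise of 1.5 ± 0.16 on the unnormalised scale (limma, adjusted p = 4.15e-05) was 0.23 ± 0.12 relative to all genes (95% interval -0.06 to 0.53, adjusted p = 0.282). For 16.6% of all probe sets every EB value was above every ESC value relative to all genes, and Id1 was still higher in EB in every culture. In pools 1 to 4 the differences relative to all genes were 0.07, -0.01, 0.18 and -0.17, none of them called, and the pool 4 value turned to a called rise of 1.15 on the unnormalised scale. Its pool ratio was 0.48, 0.13 and 0.16 in ESC and 0.16, 0.25 and 0.25 in EB. The groups overlapped and the difference was -0.03 ± 0.16 (95% interval -0.38 to 0.32; adjusted p = 0.936); on the unnormalised scale it was 1.10 and called. On the deposited scale, 80.9% of all probe sets had their highest mean in pool 2 in ESC and 52.1% in pool 3 in EB. Id1 likewise lay highest in pool 2 in all 3 ESC cultures and in pool 3 in all 3 EB cultures.

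Id2 had signals of 8.43, 8.42 and 8.08 in ESC and 9.27, 9.29 and 9.12 in EB total RNA by its lead probe set on the deposited scale, and on the unnormalised scale the rise of 0.85 was called. On the normalised scale the sign turned, with EB below ESC in every culture and a difference of -0.42 ± 0.15 that was not called (limma, adjusted p = 0.126). For 15.6% of all probe sets every EB value was below every ESC value on that scale. The second probe set, 1422537_a_at, stood at -0.01 ± 0.15. In pool 4 the lead's deposited signal was 7.30, 7.50 and 6.62 in ESC and 7.90, 7.98 and 7.82 in EB. It was higher in EB without overlap, as was so for 71.9% of all probe sets. Relative to all genes Id2 was lower there by -0.63 ± 0.13 (limma, adjusted p = 0.0114). That call was lost without EB replicate 3 (-0.59, adjusted p = 0.0541) and under median centring (-0.26, 0.167), and it turned to 0.64 on the unnormalised scale. The second probe set was not called in pool 4 (-0.20 ± 0.29).

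Within each state, Id2 stood toward pools 1 and 2. The lead's pool ratio was -0.85, -0.76 and -0.76 in ESC and -0.58, -0.76 and -0.65 in EB, below 0 in all 6 cultures. Against 0 the ratio was -0.79 ± 0.11 in ESC (limma, adjusted p = 2.15e-04) and -0.66 ± 0.11 in EB (3.74e-04). The second probe set was called as well, at -0.50 ± 0.15 (0.0234) and -0.47 ± 0.15 (0.0232). Its calls were lost without ESC replicate 2 (-0.37) or 3 (-0.41) in ESC, and without EB replicate 1 (-0.38) or 3 (-0.46) in EB. Of the 22 member probe sets, 4 were called below 0 in ESC and 4 in EB, where 12.5% and 16.6% of all probe sets were, and 0 and 5 were called above 0, where 13.2% and 20.1% were (limma; 3 of the 22 were above 0 in ESC at an unadjusted p under 0.05). On the unnormalised scale the lead's ESC ratio was -0.94 and called, and its EB ratio turned to 0.31 and was not called. The second probe set's EB ratio turned to 0.37 there. Between the states the lead's ratio differed by 0.13 ± 0.15 (95% interval -0.20 to 0.46; adjusted p = 0.675), and the groups touched at -0.76.

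Id3, like the other Id proteins an inhibitor of bHLH factors, had the largest rise among the lead probe sets in total RNA on both scales. Its deposited signal in total RNA was 7.60, 7.25 and 7.34 in ESC and 10.66, 10.56 and 10.59 in EB. The 3 EB cultures lay close together and far above the 3 ESC cultures. The rise was 1.75 ± 0.14 relative to all genes (limma, adjusted p = 0.00237) and 2.98 ± 0.16 on the unnormalised scale (1.70e-05), and within replicate numbers 1, 2 and 3 it was 1.49, 2.01 and 1.74 relative to all genes.

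On the normalised scale, the rise of Id3 was smaller in pool 4 than in pools 1 and 2. In ESC its signal was 7.60, 5.98 and 6.0 in pool 1, 8.72, 8.11 and 8.74 in pool 2, 7.87, 7.19 and 7.49 in pool 3, and 6.58, 6.61 and 6.20 in pool 4. In EB it was 9.26, 8.11 and 8.26 in pool 1, 11.30, 10.27 and 10.88 in pool 2, 10.75, 9.87 and 9.97 in pool 3, and 8.55, 8.66 and 8.81 in pool 4. Every EB value of a pool was above every ESC value of that pool, as for 4.88%, 16.5%, 61.1% and 71.9% of all probe sets in pools 1 to 4. On the normalised scale this also held in total RNA and the 4 pools, as it did with EB higher for 16.6%, 14.0%, 13.6%, 17.7% and 19.9% of all probe sets. The rises were 1.68 ± 0.08 in pool 1 (limma, adjusted p = 0.00291), 1.86 ± 0.19 in pool 2 (0.00433), 1.15 ± 0.16 in pool 3 (0.00188) and 0.59 ± 0.13 in pool 4 (0.0141). The pool 4 call was lost without EB replicate 2 (0.54, adjusted p = 0.0509), EB replicate 3 (0.52, 0.0613) or ESC replicate 2 (0.61, 0.0638). On the unnormalised scale the rises were 1.68, 2.20, 2.48 and 1.87, called in pools 2, 3 and 4, so the smallest rise was in pool 1 there. Id3 was highest in pool 2 in all 6 cultures; in EB 30.6% and in ESC 80.9% of all probe sets had their highest mean in that pool.

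The pool ratio of Id3 was -0.45, -0.24 and -0.34 in ESC and -1.52, -1.03 and -1.18 in EB relative to all genes. Every EB culture lay further toward pools 1 and 2 than every ESC culture, as for 13.6% of all probe sets. The difference was -0.90 ± 0.17 (limma, adjusted p = 0.0139), and within replicate numbers 1, 2 and 3 it was -1.08, -0.79 and -0.84. In EB the ratio was called below 0 (-1.24 ± 0.12, adjusted p = 8.43e-06), and in ESC it was not (-0.34 ± 0.12, 0.0599). The call on the difference was lost without ESC replicate 2 (-0.85, adjusted p = 0.0856) or ESC replicate 3 (-0.90, 0.0525), with an offset of 8 (-0.93, 0.0762) or 0 (-0.94, 0.128) and under median centring (-0.42, 0.153). On the unnormalised scale, where the median ratio difference of all probe sets was 0.61, the sign turned to 0.24 ± 0.24 and was not called (adjusted p = 0.406), and the EB ratio was -0.25 and not called.

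**Figure D3:**
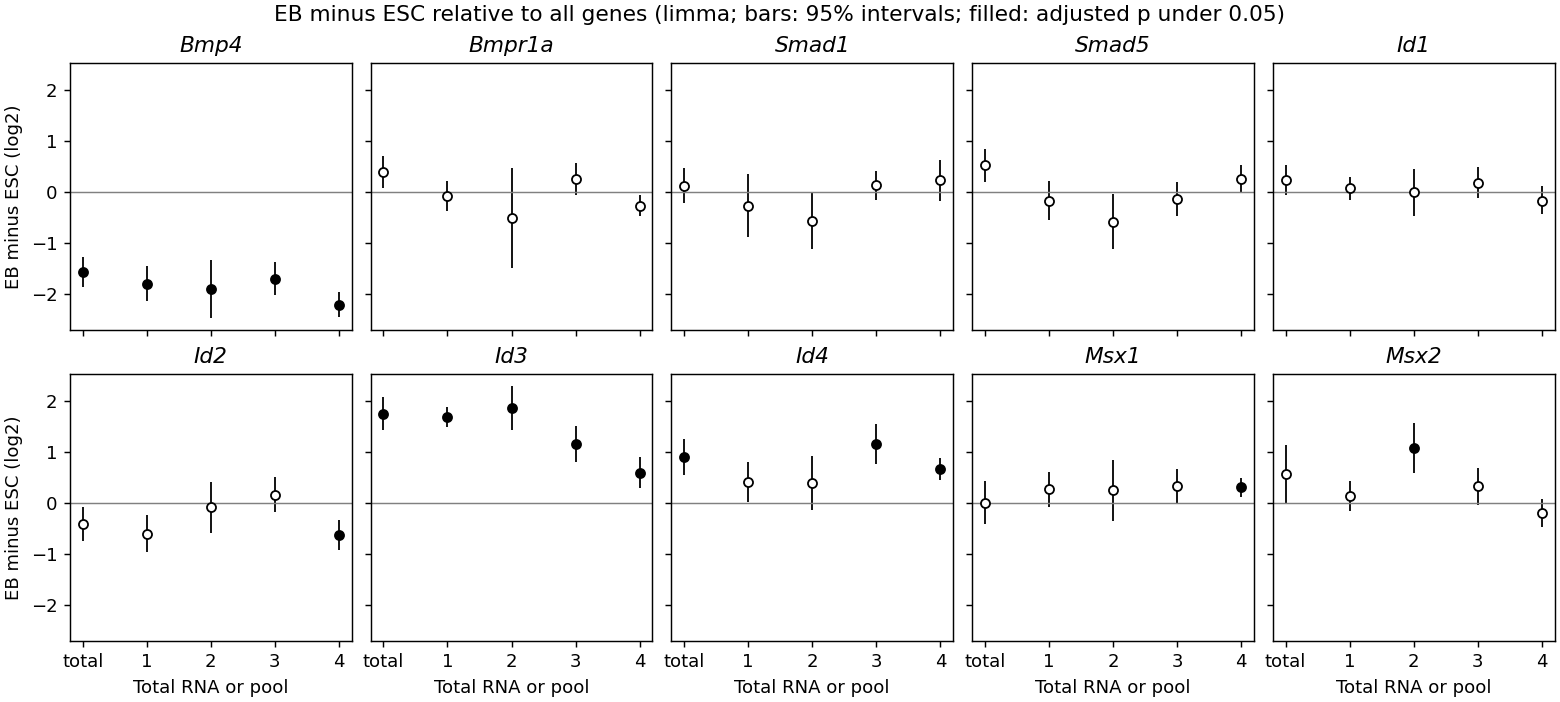
Difference EB minus ESC of each lead probe set in total RNA and in pools 1 to 4, as log2 relative to all genes with its 95% interval (n = 3 per state). Filled circles have an adjusted p under 0.05 by limma; Bmp4 lies between -2.21 and -1.58, and Id3 falls from 1.86 in pool 2 to 0.59 in pool 4.

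Id4, which blocks bHLH factors as well, rose with 2 of its 3 probe sets in total RNA. The lead had signals of 4.11, 3.91 and 4.74 in ESC and 7.25, 6.99 and 7.01 in EB on the deposited scale, low in ESC. The states did not overlap there, as was so with EB higher for 72.6% of all probe sets. After normalisation the rise was 0.90 ± 0.15 (limma, adjusted p = 0.0196), and by 1450928_at it was 0.70 ± 0.14 (0.0288). The third probe set, 1423260_at, was not called (0.51 ± 0.21, adjusted p = 0.182). Both total RNA calls were lost when single cultures were left out: the lead's without EB replicate 1 (0.83, adjusted p = 0.0744), 2 (0.84, 0.0803) or 3 (0.89, 0.0607) or ESC replicate 1 (0.92, 0.0609), and that of 1450928_at without any 1 of the 6 cultures. The lead's call was also lost with an offset of 0 (1.51) and that of 1450928_at without the filter (0.73). For 1450928_at the values without EB replicates 1, 2 and 3 were 0.73, 0.71 and 0.57, and without ESC replicates 1, 2 and 3 they were 0.71, 0.77 and 0.73.

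The rise of Id4 was called in the later-numbered pools. In pool 3 the lead's signal was 5.23, 3.93 and 5.29 in ESC and 9.15, 7.31 and 7.58 in EB, and in pool 4 it was 4.14, 4.22 and 4.04 in ESC and 6.89, 6.83 and 6.85 in EB. Neither pool had overlap between the states, as was so with EB higher for 61.1% and 71.9% of all probe sets. After normalisation the rises were 1.16 ± 0.17 in pool 3 (limma, adjusted p = 0.00276) and 0.66 ± 0.10 in pool 4 (0.00296), and the values of 0.40 and 0.39 in pools 1 and 2 were not called (0.196 and 0.389). By 1450928_at they were 1.37 ± 0.15 in pool 3 and 1.17 ± 0.11 in pool 4, both called. By 1423260_at the pool 4 rise of 0.55 was called and so was that of 0.41 in pool 1, where all 3 ESC arrays were at the floor. In pool 4, 1 of the 3 ESC arrays was at the floor for 1450928_at, and likewise for 1423260_at. The sizes of these pool 4 rises therefore do not rest on measured signal alone. The pool 4 call of 1423260_at was lost without EB replicate 1 (0.45) or 2 (0.50) or ESC replicate 2 (0.56), and its pool 1 call without ESC replicate 2 (0.45) or 3 (0.46). The lead's pool ratio was 0.21, 0.10 and 0.48 in ESC and 0.66, 0.62 and 0.45 in EB. It was called above 0 in EB (0.58 ± 0.12, adjusted p = 0.00192), and the difference between the states of 0.31 ± 0.17 was not called (0.293). For 1450928_at the ratio differed by 0.66 ± 0.22 (adjusted p = 0.0929), and without EB replicate 2 it was called (0.89, 0.0356). Its EB ratio of 0.62 was called against 0 (adjusted p = 0.00689), and not without EB replicate 1 (0.53, 0.0553) or 3 (0.46, 0.0604).

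**Figure D4:**
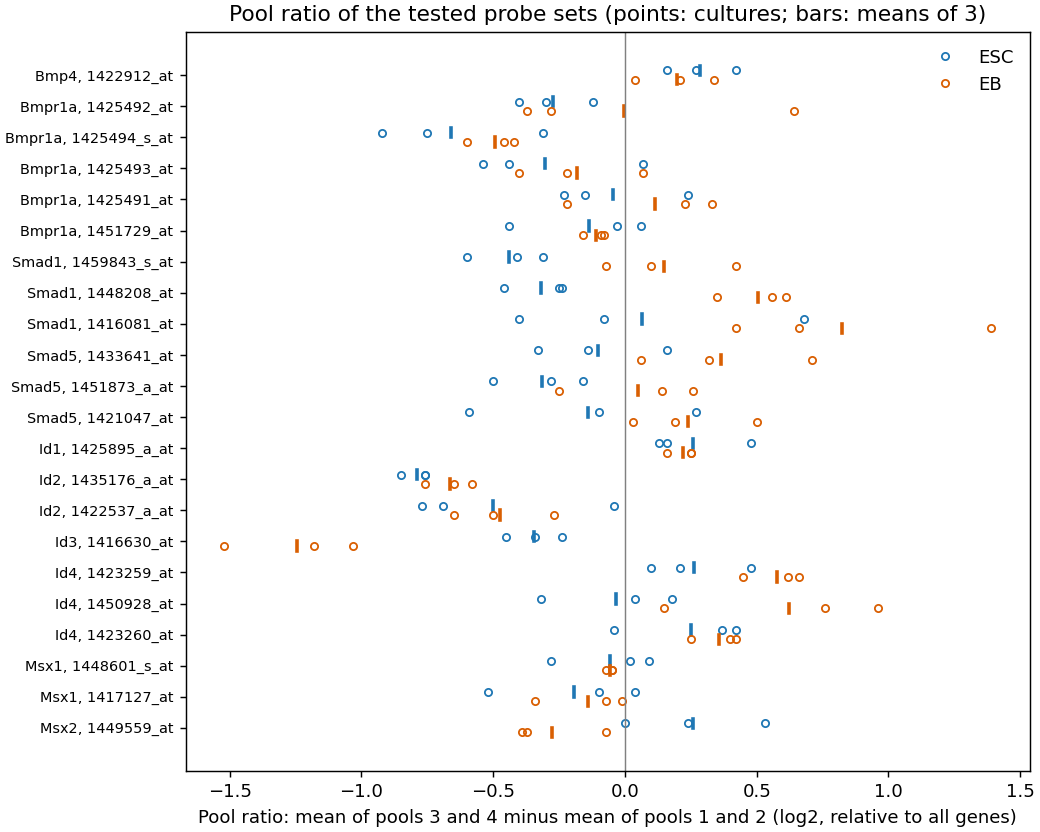
Pool ratio of the 22 tested member probe sets, pools 3 and 4 against pools 1 and 2 in log2 relative to all genes, with 3 cultures per state (circles) and their means (bars). Id3 lies between -1.52 and -1.03 in EB, the Id2 lead lies below 0 in both states, and Smad1 probe set 1448208_at lies below 0 in ESC and above 0 in EB.

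Msx1, a homeobox repressor, was near the array's lower end in ESC. The lead's signal was 4.41, 3.66 and 4.85 in ESC and 5.75, 5.16 and 5.87 in EB total RNA on the deposited scale. After normalisation the groups overlapped and the difference was 0.00 ± 0.18 (limma, adjusted p = 0.997), where the unnormalised scale gave 0.62, called. In pool 4 all 3 ESC arrays were at the floor and the EB signals were 5.57, 5.05 and 5.20. The call there (0.30 ± 0.08, adjusted p = 0.0320) therefore has no measured size on the ESC side, turned to -0.16 under median centring, and was lost without any 1 of EB replicates 1, 2 and 3 (0.23, 0.27 and 0.29) or of ESC replicates 1 and 2 (0.37 and 0.30).

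Msx2, its paralog, had signals of 3.10, 4.86 and 5.30 in ESC and 6.98, 6.78 and 6.68 in EB total RNA on the deposited scale. After normalisation the groups overlapped and the difference of 0.56 ± 0.25 was not called (limma, adjusted p = 0.207; unnormalised scale 1.36, called). In pool 2 its signal was 3.80 (at the floor), 4.08 and 4.62 in ESC and 7.11, 6.05 and 6.91 in EB. The states did not overlap, as was so with EB higher for 16.5% of all probe sets. After normalisation the rise of 1.07 ± 0.22 was called (limma, adjusted p = 0.0312). The pool 2 rise lost its call without EB replicate 1 (0.99, adjusted p = 0.102), EB replicate 2 (1.07, 0.109), or ESC replicate 1 (0.88, 0.138), 2 (1.24, 0.101) or 3 (1.15, 0.0877). Its pool ratio was 0.53, 0.24 and 0.00 in ESC and -0.37, -0.07 and -0.39 in EB. The groups did not overlap, as was so with EB lower for 13.6% of all probe sets. The difference of -0.53 ± 0.18 was not called (limma, adjusted p = 0.101).

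Over the 4 pools, the member probe sets called of 22 were 2 higher and 1 lower in pool 1, where 4.93% and 4.91% of all probe sets were, 2 and 1 in pool 2 (1.92% and 2.14%), 4 and 1 in pool 3 (8.56% and 8.11%), and 7 and 2 in pool 4 (12.3% and 11.3%). The count was thus highest in pool 4, as was the share of all probe sets. By gene, the 7 higher in pool 4 were 3 probe sets of Id4 and 1 each of Id3, Smad1, Bmpr1a and Msx1, and the 2 lower were Bmp4 and Id2. In ESC 9 of the 10 leads had their highest mean deposited signal in pool 2 and 1 in pool 3, where 80.9% and 11.2% of all probe sets did. In EB 3 had it in pool 2, 6 in pool 3 and 1 in pool 4, where 30.6%, 52.1% and 15.5% of all did, so their shares were near those of all probe sets. The 3 leads with their highest EB mean in pool 2 were Id2, Id3 and Msx2, and Id3 had it there in every EB culture.

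Among other genes of the pathway, 41 from lists of ligands, receptors, transducers, inhibitors, antagonists, targets and bHLH partners were tested by their lead probe sets. In total RNA 2 were called higher in EB and 4 lower relative to all genes, where 4.03% and 3.61% of all probe sets were, and their median difference was -0.01, the same as over all probe sets. With the fit limited to 1 probe set per gene, 12.7% were called in either direction. Shares over all probe sets, here and below, are therefore not a like measure for lead probe sets. None of the 3 ligands, 9 receptors or the 1 transducer tested was called. Of 9 intracellular inhibitors, Smad7, which blocks the type I receptor and is itself induced by BMP, was the 1 called and was lower by -0.50 ± 0.12 (limma, adjusted p = 0.0489), with a rise of 0.78 on the unnormalised scale. Of 6 secreted antagonists, Fstl1, a follistatin-like secreted protein, was lower by -0.76 ± 0.13 (0.0197; unnormalised scale 0.50). Of 8 genes listed as targets or cofactors, Tfap2c, a transcription factor of trophoblast and germ cells, rose by 1.17 ± 0.16 (0.00973), Prdm1, a repressor needed for germ cell formation, rose by 0.58 ± 0.13 (0.0411), and Zfp423, a SMAD cofactor, fell by 1.04 ± 0.14 on the log2 scale (0.0108; unnormalised scale 0.06, not called). Of 5 bHLH genes, Hes1, a repressor, was lower by -0.67 ± 0.14 (0.0341; unnormalised scale 0.44). Smad7 and Prdm1 lost their calls without any 1 of the 6 cultures, at -0.54 to -0.45 and 0.51 to 0.63. Hes1 lost its call in all but the fit without ESC replicate 3 (-0.78 to -0.58), Fstl1 in all but the fit without EB replicate 2 (-0.85 to -0.70), and Zfp423 without EB replicate 2 (-1.03, adjusted p = 0.0529). Tfap2c kept its call without any 1 of the cultures, at 1.08 to 1.31.

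For the pool ratio 3 of the 41 were called further toward pools 3 and 4 in EB and 1 toward pools 1 and 2, where 2.95% and 3.79% of all probe sets were, with a median of 0.21 against 0.00 over all probe sets. Tob1, an antiproliferative protein that restrains BMP signalling, had a ratio higher by 0.87 ± 0.17 (limma, adjusted p = 0.0140), Tfap2c one higher by 0.72 ± 0.19 (0.0448) and Tbx3, a T-box factor of pluripotent and mesodermal cells, one higher by 0.70 ± 0.15 (0.0201). Acvr2b, a type II receptor, had a ratio lower by -0.94 ± 0.16 (0.00954), which turned to 0.18 on the unnormalised scale, not called. Without ESC replicate 2 none of the 4 was called (Tob1 0.77, Tfap2c 0.64, Tbx3 0.71 and Acvr2b -0.88). Tfap2c also lost its call without EB replicates 1 (0.65), 2 (0.79) or 3 (0.71) or ESC replicate 1 (0.60), and Tbx3 without EB replicate 1 (0.67) or ESC replicates 1 (0.66) or 3 (0.74). In pools 1, 2, 3 and 4 the 41 genes had 1, 0, 5 and 6 called higher, against 4.93%, 1.92%, 8.56% and 12.3% of all probe sets, and 3, 2, 8 and 6 called lower, against 4.91%, 2.14%, 8.11% and 11.3%.

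For 4 of the members, the 2 genes with the most similar level across all 30 arrays were sought among 13245 other genes, by Pearson correlation after quantile normalisation of the 30 arrays. These arrays come from 6 cultures and share state and pool, so the values describe likeness only. For Id3 they were Gpx4, which reduces lipid peroxides (0.946), and Fmr1nb (0.939). For Bmp4 they were Socs3, a LIF-induced inhibitor of cytokine signalling (0.966), and Gbx2, a homeobox gene (0.958). For Id1 they were Pfdn2, a prefoldin subunit (0.914), and Eapp (0.895), and for Id2 they were Nbdy (0.926) and Dbi, an acyl-CoA binding protein (0.902).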

How the data were processed

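Per the labels, RNA (2.5 ug per array) from 4 gradient pools and the undivided lysate was measured in 3 ESC and 3 EB cultures, called biological replicates. The authors deposited log2 signals for 45101 probe sets; the submitters' processing notes name MAS5 and affy, with no role, version or scaling step. Probe sets took their symbols from the array's annotation table: 1 symbol for 34945, several for 932 and none for 9160, besides 64 controls.

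From the deposited log2 values, signals were returned to the linear scale, an offset of 32 was added and log2 taken. A filter on mean signal removed the lowest 40%, leaving 27023 probe sets. Arrays of a comparison were quantile normalised and fitted by lmFit and eBayes of limma 3.58.1 (R 4.3.3); p-values are two-sided and were adjusted by Benjamini-Hochberg across those 27023. The same log2(signal + 32) values tested without normalisation, called the unnormalised scale, stand beside them, because their shift between the states would set most calls; the deposited log2 signals themselves are listed per array and were not tested without normalisation. For the pool ratio, all 24 pool arrays were normalised together. The limma fit alone was run on simulated normal values with known differences added, for total RNA and the pool ratio between the states. The offset, the filter, the normalisation and the floor were not simulated. With 3 against 3 arrays, their number limits the precision, and an exact permutation test cannot give a p below 0.1.

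The text names all 10 genes; from the pathway lists, genes called in total RNA or the pool ratio (up to 8 each); and 2 genes of most similar level for each of 4 members. Members and lists were chosen with earlier results of these data known, so no count is independent support. Alternatives were the unnormalised scale, median centring, offsets of 8 and 0, no filter, 1 probe set per gene, a mean-variance trend, a replicate block and leaving out each culture; scaling before the offset was added after seeing the data.

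Same-numbered ESC and EB arrays had correlations of their deviations of 0.01, 0.01 and 0.03 in total RNA, 0.02, 0.04 and 0.06 in pool 1, 0.15, 0.07 and 0.16 in pool 2, 0.23, 0.07 and 0.08 in pool 3, 0.41, 0.05 and -0.02 in pool 4, and 0.11, 0.11 and 0.02 for the pool ratio. In no comparison were all 3 above 0.1, so the numbers were not taken to pair the cultures, although the pool arrays of a number share a floor in both states. All 26 called member differences between the states had 1 sign within the 3 numbers.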

Additional observations from a re-analysis of the deposited data

Results flagged for a closer look

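The test of the pool ratio between the states singled out 2 member probe sets. For Id3 the ratio relative to all genes was lower in EB by -0.90 (limma, adjusted p = 0.0139). All 3 EB cultures lay below all 3 ESC cultures, as for 13.6% of all probe sets. For Smad1 probe set 1448208_at the ratio was higher in EB by 0.83 (limma, adjusted p = 0.0142), again without overlap, as for 14.2% of all probe sets. Neither call held without ESC replicate 2, where Id3 stood at -0.85 (adjusted p = 0.0856) and Smad1 at 0.86 (0.0729).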

How the results depend on the processing

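Of 49 named results called relative to all genes, 666 alternatives were run and 485 kept the call. A change of sign was counted as not kept. Where limma called 0 members below, 1 or more of the 22 had an unadjusted p under 0.05 in each direction. The share of all probe sets called, given after each count, moved as well. The member probe sets called in total RNA numbered 4 (7.64% of all) and became 19 on the unnormalised scale (73.5%), 11 under median centring (25.5%), 7 with a mean-variance trend (16.2%), 2 with a replicate block (0.470%) and 2 to 3 without any 1 culture (1.45% to 3.41%). In pool 1 the 3 (9.84%) became 0 on the unnormalised scale (0%) and 2 to 4 without 1 culture (3.18% to 6.38%). In pool 2 the 3 (4.07%) became 0 with an offset of 0 (0.104%) and 1 to 3 without 1 culture (0.137% to 5.23%). In pool 3 the 5 (16.7%) became 18 on the unnormalised scale (46.2%), 3 with 1 probe set per gene (22.9%) and 4 to 5 without 1 culture (8.71% to 14.1%). In pool 4 the 9 (23.6%) became 20 on the unnormalised scale (69.6%), 5 without the filter (10.7%), 5 with 1 probe set per gene (30%) and 5 to 8 without 1 culture (14.0% to 21.7%). For the pool ratio the 2 (6.73%) became 17 on the unnormalised scale (55.1%), 8 under median centring (31.2%), 0 with an offset of 8 or 0 (0%), 1 with 1 probe set per gene (9.35%) and 0 to 3 without 1 culture (0.496% to 4.91%). With a replicate block, the pool ratio count was 3 (7.25%). For the ratio in ESC the 4 (25.7%) became 2 under median centring (18.0%), 2 with an offset of 8 (21.3%) or 0 (18.2%) and 2 to 3 without 1 culture (16.1% to 17.5%). For that in EB the 9 (36.7%) became 15 on the unnormalised scale (56.9%), 3 with 1 probe set per gene (42.3%) and 6 to 7 without 1 culture (29.5% to 30.3%). With 1 probe set per gene, fewer probe sets were tested; the cause of the other changes was not tested.

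The sign turned on the unnormalised scale in total RNA for Id2 (0.85), Msx1 (0.62), Zfp423 (0.06), Fstl1 (0.50), Hes1 (0.44) and Smad7 (0.78). In pool 4 it turned for Bmpr1a (1.03), Id1 (1.15), Id2 (0.64) and Msx2 (0.41). For the pool ratio it turned for Bmp4 (0.96), Id1 (1.10), Id3 (0.24) and Acvr2b (0.18), and for the EB ratio for Bmpr1a (0.97 by its lead and 0.40 by 1425494_s_at) and Id2 (0.31 and 0.37). Median centring turned Smad5 1421047_at in pool 3 (-0.04), Msx1 in pool 4 (-0.16) and the EB ratio of Bmpr1a (0.50). Id3 in total RNA and pool 3, Bmp4 in pool 4 and the Id4 lead in pools 3 and 4 kept their calls in all 15 alternatives run. The replicate block ended the total RNA calls of Id4 (1423259_at, adjusted p = 0.0720, and 1450928_at, 0.0821), Tfap2c, Zfp423, Fstl1, Hes1, Prdm1 and Smad7. It also ended those of Id4 1423260_at in pool 1, Msx2 in pool 2, and Msx1 and Bmpr1a 1425491_at in pool 4, and Id4 1450928_at gained a call for the pool ratio (0.66, adjusted p = 0.0369). Values near the floor, as for Msx1 and Msx2 in ESC, limit what these arrays can show.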
